A study of Rattus norvegicus with 22 samples.

Results

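The amino acid and monocarboxylate transporters described here are the genes whose symbol in the array annotation begins with Slc1a, Slc3a, Slc6a, Slc7a, Slc16a, Slc36a, Slc38a or Slc43a followed by a number. They were 62 of the 14217 genes that had a probe set with 1 symbol, and 1 of them, Slc7a6os, carries such a symbol without encoding a transporter. RNA of lavaged right lung from 22 male Sprague-Dawley rats, 1 array each, was measured after pulmonary embolism (PE) made with polystyrene beads of 25 microns, the microspheres, given through the right jugular vein. The groups were PE2.0 (2000000 microspheres per 100 g of body weight in 0.15 ml, called Severe PE in the study), PE1.3 (1300000 per 100 g in 0.10 ml, called Mild PE) and vehicle (0.15 ml of 0.01% Tween-20 per 100 g), each at 18 h and at 2 h, with 4, 4 and 3 rats at each time. The injected volume of the vehicle matched PE2.0 and not PE1.3, and microspheres obstruct vessels without forming a clot.

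Solute carriers of these families move amino acids, related small molecules and monocarboxylates such as lactate across cell membranes. Slc7 light chains such as Slc7a5 reach the cell surface only when joined to the heavy chain Slc3a2, and most exchange amino acids across the membrane. Most Slc1 and Slc38 carriers are coupled to sodium, and some of them, such as Slc1a5, also work by exchange. Of the Slc16 carriers, Slc16a1 and Slc16a3 move lactate and pyruvate together with protons, and others carry different molecules. In lung, Slc6a4 of the vascular endothelium is known for clearing serotonin from blood, and Slc7a1 for bringing in arginine, the substrate of nitric oxide synthases and arginases.

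The values are log2 signals after quantile normalization, with signals under 16 set to 16, so that 4 is the floor. Signals of different probe sets cannot be set against each other. Of the 62 members, 38 had a mean of 6 or more over all arrays and 24 were dimmer. The members lowest on the scale were Slc7a14, at the floor on 21 arrays, Slc6a11 on 18, Slc6a5 and Slc16a8 on 17 each and Slc36a3 on 15. Within each family the member of highest mean signal was Slc1a5, Slc3a2, Slc6a6 (12.09), Slc7a7, Slc16a3, Slc36a2 (5.62), Slc38a10 (11.92) and Slc43a2. Surfactant and other alveolar type 2 markers, which define lung, were measured on every array, with a mean of 13.13 to 13.43. Arrays of 2-h vehicle rat 3, 2-h PE2.0 rat 1, 18-h vehicle rat 1 and 18-h PE1.3 rat 4 had the lowest 5′ signal of control transcripts (for Gapdh, 3′ minus 5′ of 0.346 to 0.638, against 0.176 to 0.322 on the other 18 arrays). At 18 h these arrays entered the vehicle and PE1.3 groups, and without them 9 of the 14 PE2.0 calls against vehicle and 0 of the 3 PE1.3 calls given next were kept.

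At 18 h, 14 of the 62 members passed the test between PE2.0 and vehicle lungs (limma, Benjamini-Hochberg adjusted p under 0.05 over all 31042 probe sets and at least 1.5-fold), 8 higher and 6 lower in PE2.0. That is 22.6% of the members, whereas 7.13% of all probe sets and 9.9% of all genes passed. The members higher in PE2.0 were Slc1a3, Slc1a5, Slc7a1, Slc7a5, Slc7a7, Slc7a12, Slc16a1 and Slc16a6, and those lower were Slc6a4, Slc6a8, Slc6a17, Slc7a10, Slc16a9 and Slc38a5. The median difference of the members was 0.23 on the log2 scale and that of all probe sets 0.00. In PE1.3, compared with the same 3 vehicle rats, Slc1a3 and Slc7a5 were higher and Slc38a5 was lower. That is 3 of 62 (4.84%), with 1.03% of all probe sets and 1.43% of all genes passing. No member passed between PE2.0 and PE1.3 at 18 h in limma, where no probe set did (0%). In that comparison 16 members had an unadjusted p under 0.05, the unadjusted share over all probe sets being 14%, and the methods' t-test called 0 members.

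**Figure D1:**
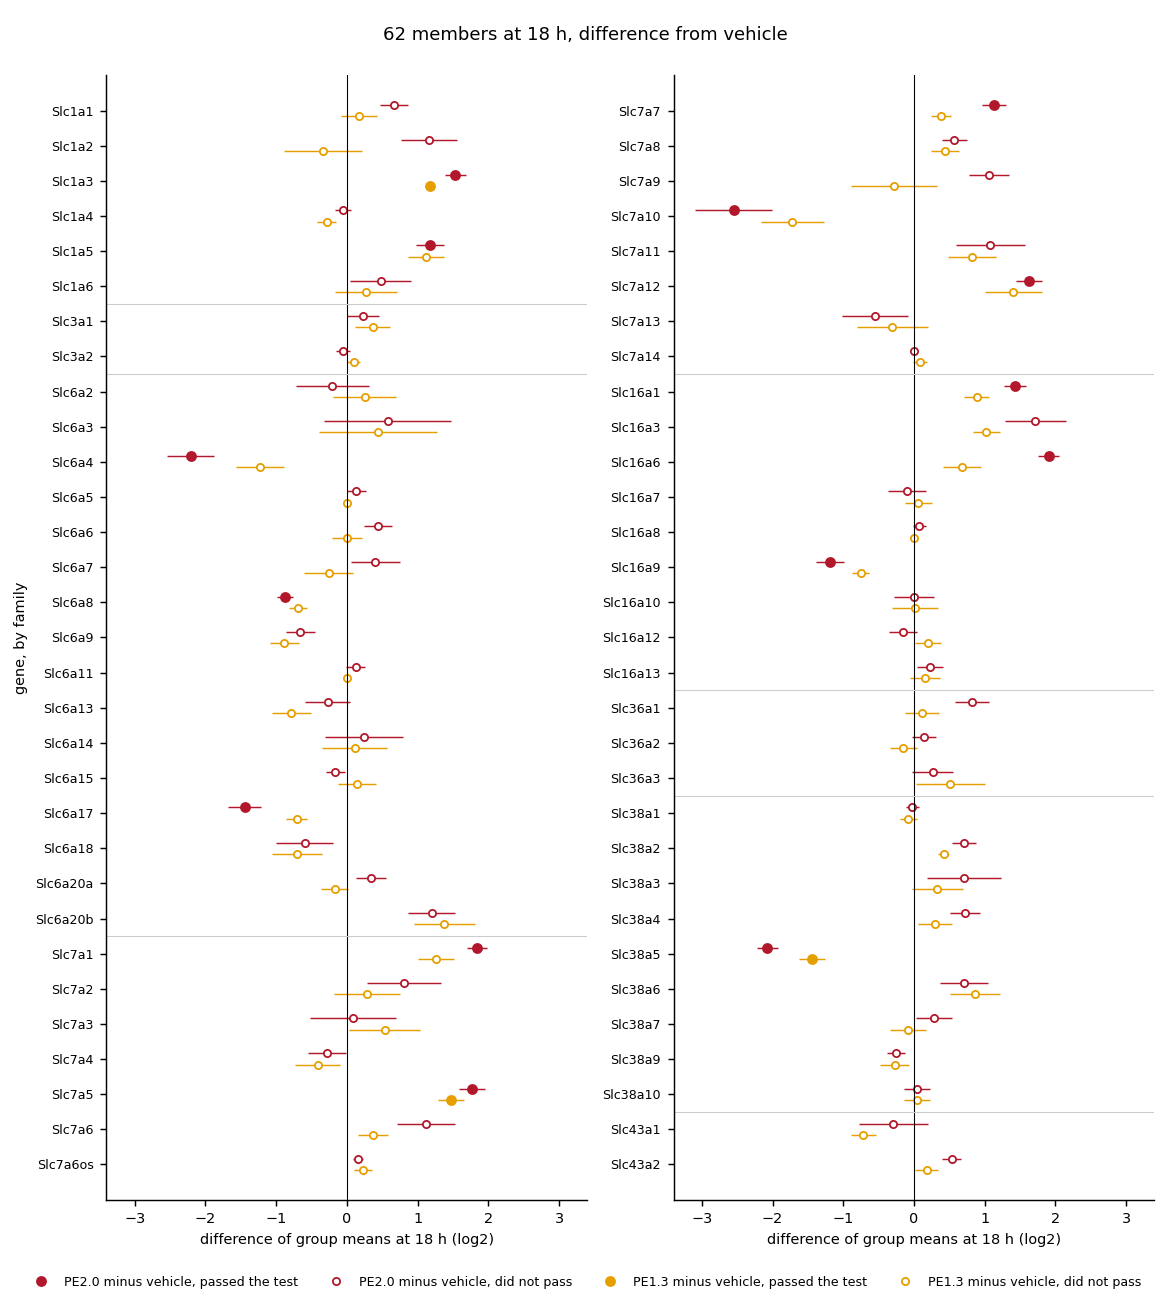
Difference of group means at 18 h on the log2 scale for each of the 62 members, PE2.0 minus vehicle in red and PE1.3 minus vehicle in orange, with bars of 1 SE, grouped by family. Filled points passed the test, 14 in PE2.0 and 3 in PE1.3; the lowest value is Slc7a10 at −2.55 and the highest Slc16a6 at 1.90.

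Slc7a1 (CAT-1), the main carrier of arginine and lysine into most cells, measured 10.70, 11.18, 11.19 and 11.17 in the 4 PE2.0 lungs at 18 h, against 9.27, 9.11 and 9.29 in the 3 vehicle lungs. The difference of 1.84 ± 0.14 (SE), 3.57-fold, passed the test (adjusted p = 0.00581). The 18-h PE1.3 lungs had 10.75, 10.61, 9.82 and 10.76, against the same vehicle values, and the difference of 1.26 ± 0.25 did not pass (adjusted p = 0.0758). Every PE rat lay above every vehicle rat, and PE1.3 rat 3 lay apart from its group, nearest to vehicle. A second probe set of Slc7a1 differed by 1.76 between PE2.0 and vehicle (adjusted p = 0.00992), and the other one, dim at a mean of 4.74, by 1.31 without passing (adjusted p = 0.178). At 2 h Slc7a1 was 9.98, 10.19, 9.93 and 9.83 in PE2.0, against 9.53, 9.30 and 8.95 in vehicle lungs, and 10.05, 10.09, 9.98 and 9.67 in PE1.3. Neither group overlapped vehicle, yet neither 2-h difference, 0.72 ± 0.16 for PE2.0 and 0.68 ± 0.17 for PE1.3, passed (adjusted p = 0.321 and 0.199).

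Slc7a5 (LAT1), the light chain that exchanges large neutral amino acids such as leucine, was, with Slc1a3 and Slc38a5, called at both PE doses at 18 h. It measured 8.75, 9.03, 8.45 and 8.78 in PE2.0 lungs, against 6.69, 7.04 and 7.23 in vehicle lungs, a difference of 1.77 ± 0.18 (3.42-fold, adjusted p = 0.00923). In PE1.3 lungs it measured 8.34, 8.72, 8.17 and 8.58, 1.47 ± 0.19 above vehicle (2.77-fold, adjusted p = 0.0391). All 8 PE rats were more than 1 log2 unit above the mean of the vehicle rats. The PE1.3 call was lost without any 1 vehicle array and without PE1.3 rat 1, 2 or 4 (adjusted p = 0.0714 to 0.105) and without the low 5′ arrays (0.131), and it was kept without PE1.3 rat 3. At 2 h Slc7a5 was 7.63, 7.55, 7.52 and 7.40 in PE2.0, against 6.90, 7.07 and 6.15 in vehicle lungs (adjusted p = 0.444).

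The promoters of Slc7a1, Slc7a5 and Slc16a1 are shown as examples, picked from the members higher in PE2.0 at 18 h whose windows hold a motif that was searched for. Other members met this too: Slc1a3, with a larger PE2.0 difference than Slc16a1, also held ACGTG and is not shown. RefSeq (GRCr8) promoter windows, 250 bases before to 50 after the start, were matched for 47 of the 62 members, and the 250 bases before the start are printed 5′ to 3′. In Slc7a1 (chr12:11664238-11664487, plus strand) the capitals mark TGATGNAA, the element bound by ATF4 with C/EBP factors. In Slc7a5 (chr19:66872413-66872662, minus strand) and Slc16a1 (chr2:194812410-194812659, plus strand) they mark ACGTG, the core bound by hypoxia-inducible factors, which here lies in the palindrome CACGTG, also the letters of an E-box.
Slc7a1: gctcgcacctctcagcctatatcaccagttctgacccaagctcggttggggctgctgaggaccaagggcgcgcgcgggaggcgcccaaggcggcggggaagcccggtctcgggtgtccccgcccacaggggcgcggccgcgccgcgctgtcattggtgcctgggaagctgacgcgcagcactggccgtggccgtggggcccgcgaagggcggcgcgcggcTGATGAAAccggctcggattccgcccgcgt
Slc7a5: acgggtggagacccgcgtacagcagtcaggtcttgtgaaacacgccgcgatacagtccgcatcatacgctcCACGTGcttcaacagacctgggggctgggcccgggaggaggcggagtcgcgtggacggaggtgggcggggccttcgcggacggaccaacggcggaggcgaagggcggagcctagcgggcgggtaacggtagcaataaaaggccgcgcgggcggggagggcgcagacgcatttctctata
Slc16a1: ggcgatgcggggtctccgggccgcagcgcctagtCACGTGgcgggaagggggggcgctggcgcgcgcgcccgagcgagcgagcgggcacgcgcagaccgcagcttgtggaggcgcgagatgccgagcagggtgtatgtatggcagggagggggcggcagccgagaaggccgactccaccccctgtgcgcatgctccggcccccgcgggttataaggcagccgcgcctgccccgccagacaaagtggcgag
On either strand, TGATGNAA occurred in 3 of the 47 member windows (6.38%) and in 3.82% of all 27457, and Slc7a1 was the 1 that held it of 15 members with a window that passed against vehicle, for dose or for the interaction of dose and time. ACGTG occurred in 15 of 47 (31.9%) against 19.7% of all, in Slc1a3, Slc6a20a, Slc7a5, Slc7a6 and Slc16a1 among those 15. GCGTG, the other form of that core, occurred in 17 of 47 (36.2%) against 31.1%, and the antioxidant element TGACNNNGC in 8 of 47 (17%) against 12.2%. A match describes letters in the window and says nothing of binding.

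Slc7a7 (y+LAT1), a light chain that exports arginine and lysine in exchange for neutral amino acids and is known in epithelia and macrophages, measured 11.07, 10.84, 10.63 and 11.33 in 18-h PE2.0 lungs, against 9.91, 9.85 and 9.75 in vehicle lungs. The groups did not overlap, and the difference was 1.13 ± 0.17 (2.19-fold, adjusted p = 0.0197). That call was lost without any 1 vehicle array and without PE2.0 rat 2 (adjusted p = 0.0519 to 0.0627). Vehicle rat 1, the low 5′ array of this comparison, is among them (0.052). In PE1.3 the 4 lungs ranged 10.0 to 10.54, a difference of 0.38 ± 0.14 that did not pass (adjusted p = 0.219). At 2 h Slc7a7 ranged 10.12 to 10.23 in PE2.0, against 10.0 to 10.25 in vehicle lungs, and 9.85 to 10.18 in PE1.3.

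Slc7a12, a light chain known from rodents, was dim, with 6.02, 6.19, 5.62 and 5.69 in 18-h PE2.0 lungs, against 4.0, 4.41 and 4.34 in vehicle lungs, where rat 1 was at the floor. The difference of 1.63 ± 0.18 passed (adjusted p = 0.0105), but with a floor of 64 in place of 16 it was 0.06 and did not. Its PE1.3 values at 18 h were 4.67, 6.30, 5.65 and 6.0, a spread of over 1 log2 unit (adjusted p = 0.143). Slc7a10 (asc-1), a light chain that exchanges small neutral amino acids and is best known from brain and fat, went the other way. It averaged 5.32 ± 0.90 in 18-h PE2.0 lungs and 7.87 ± 0.53 in vehicle lungs (SD, n = 4 and 3), with PE2.0 rat 3 at the floor, a difference of −2.55 ± 0.54 (5.86-fold lower, adjusted p = 0.0435). The call was kept only without PE2.0 rat 3 (left out 1 at a time, the other 6 arrays gave an adjusted p of 0.0666 to 0.119, with 0.087 for the low 5′ array), and the methods' t-test gave 0.0818. In PE1.3 it averaged 6.15 ± 0.68 at 18 h (adjusted p = 0.12).

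Slc3a2, the heavy chain shared by Slc7a5, Slc7a6, Slc7a7, Slc7a8, Slc7a10 and Slc7a11, measured 13.06, 13.01, 13.01 and 12.80 in 18-h PE2.0 lungs, against 13.12, 13.08 and 12.85 in vehicle lungs, a difference of −0.05 ± 0.10 (adjusted p = 0.831). In PE1.3 lungs it was 13.02 to 13.24 at 18 h, and over all 22 arrays it stayed between 12.62 and 13.24. Slc3a1, the heavy chain of the renal cystine carrier, averaged 9.16 ± 0.16 in 18-h PE2.0 lungs and 8.93 ± 0.47 in vehicle lungs.

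Slc7a8 (LAT2) measured 8.55, 8.83, 9.11 and 8.73 in 18-h PE2.0 lungs, against 8.45, 7.94 and 8.30 in vehicle lungs, a difference of 0.57 ± 0.18 that did not pass (adjusted p = 0.108). Slc7a6 (y+LAT2) measured 8.37, 9.45, 9.13 and 10.16 in PE2.0, against 8.23, 8.24 and 8.03 in vehicle lungs. All 4 PE2.0 rats were higher, with rat 1 close to vehicle and rat 4 far above it, and the difference of 1.11 ± 0.41 did not pass (adjusted p = 0.162), though Slc7a6 passed for dose over both times (adjusted p = 0.0351). Slc7a11 (xCT), which brings in cystine for glutathione synthesis, was 5.66, 6.42, 7.66 and 6.07 in PE2.0, against 5.63, 5.24 and 5.24 in vehicle lungs, with rat 3 the highest (adjusted p = 0.235). In 18-h PE1.3 lungs Slc7a8 was 8.32 to 9.0, Slc7a6 7.99 to 8.75 and Slc7a11 5.33 to 6.63, none of them past the test. At 2 h Slc7a8 ranged 8.26 to 8.51 in PE2.0 lungs and 8.17 to 8.33 in vehicle lungs, and Slc7a6 ranged 8.45 to 8.97 in PE2.0 lungs and 8.34 to 8.65 in vehicle lungs. Of the 15 Slc7 members, 4 were higher and 1 lower in 18-h PE2.0, and the median difference was 0.81.

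**Figure D2:**
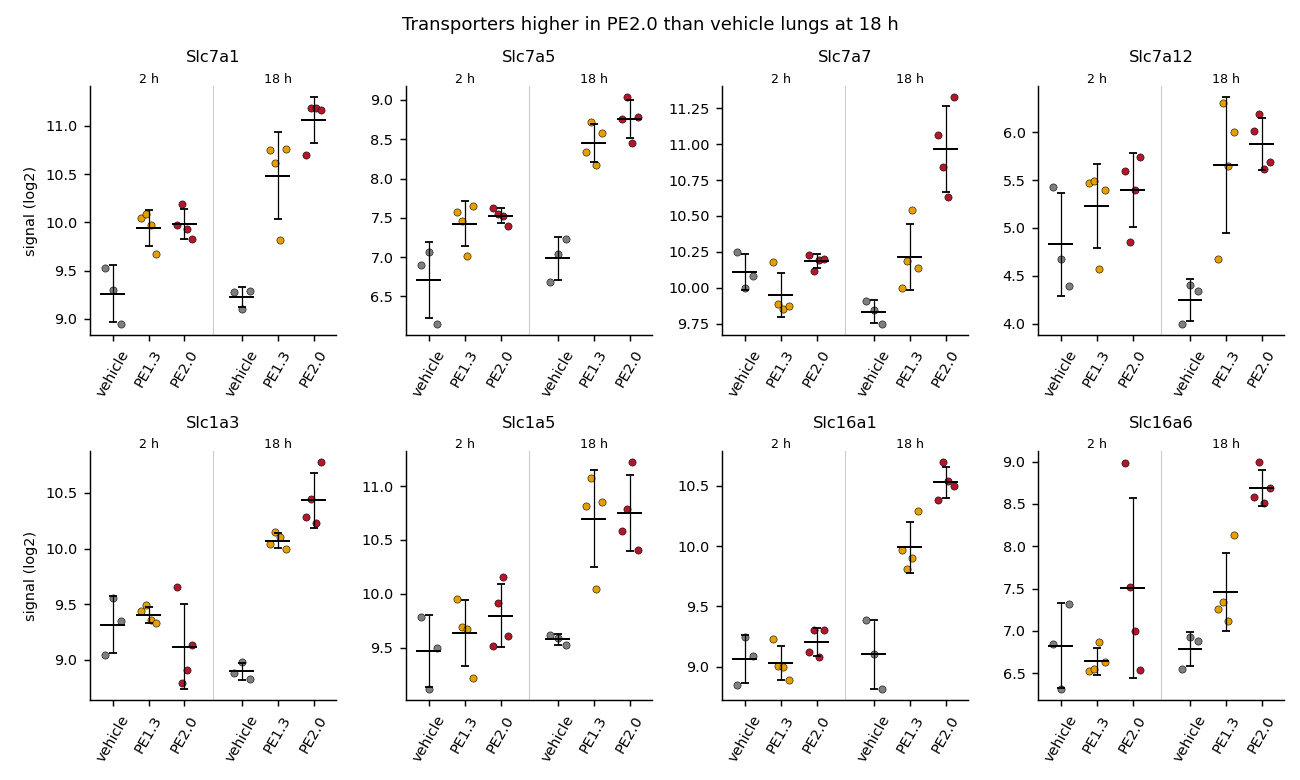
Log2 signal of each rat for the 8 members that were higher in 18-h PE2.0 than in vehicle lungs, by group (vehicle, PE1.3 and PE2.0 at 2 h and 18 h), with the mean as a line and the SD as a bar. Slc7a1 reaches 11.19 in 18-h PE2.0 and stays at or below 9.29 in 18-h vehicle; in Slc16a6, 2-h PE2.0 rat 1 lies apart at 8.98.

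**Figure D3:**
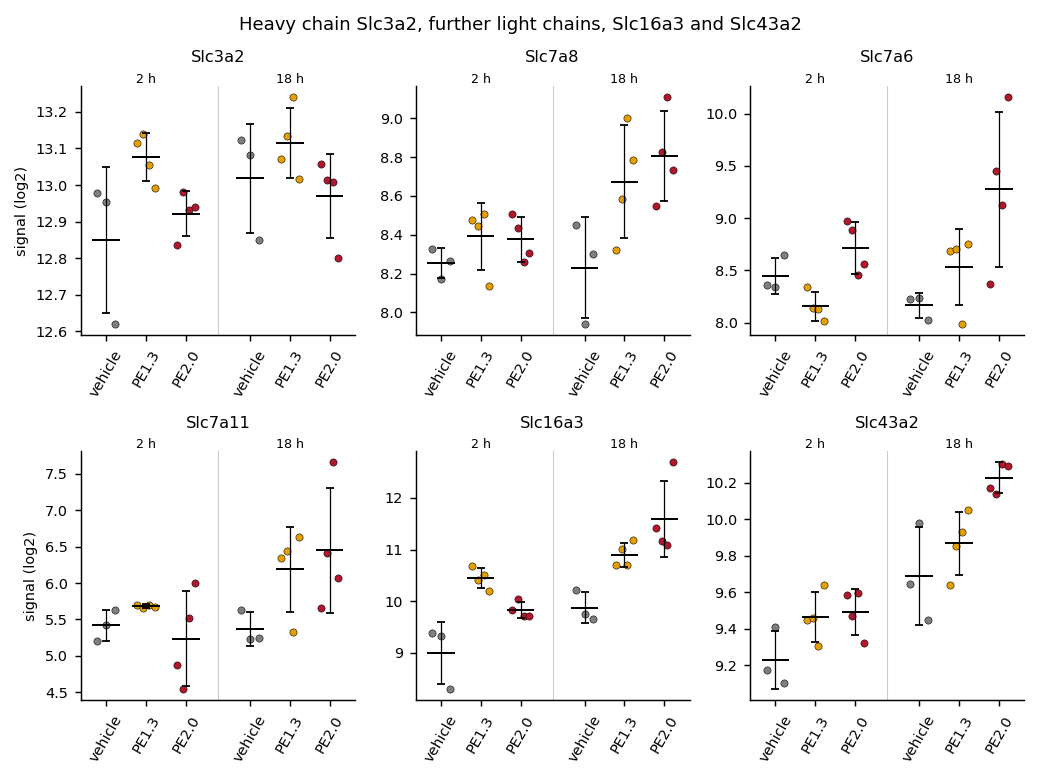
Log2 signal of each rat for the heavy chain Slc3a2, the light chains Slc7a8, Slc7a6 and Slc7a11, and for Slc16a3 and Slc43a2, by group, with the mean as a line and the SD as a bar. Slc3a2 spans 12.62 to 13.24 over all rats, and Slc16a3 reaches 12.69 in 18-h PE2.0 rat 4.

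In the Slc1 family, Slc1a3 (GLAST, EAAT1) and Slc1a5 (ASCT2) were higher at 18 h. Slc1a3, which takes up glutamate and aspartate, measured 10.28, 10.45, 10.23 and 10.77 in PE2.0 lungs, against 8.88, 8.98 and 8.83 in vehicle lungs, a difference of 1.54 ± 0.14 (2.90-fold, adjusted p = 0.00769). In PE1.3 lungs it was 10.04, 10.15, 10.10 and 10.0, 1.17 ± 0.06 above vehicle (2.26-fold, adjusted p = 0.00761). Both groups lay at least 1 log2 unit above every vehicle rat. The PE1.3 call was lost without PE1.3 rat 2 (adjusted p = 0.0519) and without the low 5′ arrays (0.0798). The other 2 probe sets of Slc1a3 differed by 0.76 and 0.87 in PE2.0 (adjusted p = 0.137 and 0.0618) and by 0.48 and 0.62 in PE1.3 (adjusted p = 0.217 and 0.0333), so that 1 of them passed in PE1.3. At 2 h Slc1a3 was 9.65, 8.79, 8.91 and 9.13 in PE2.0, against 9.04, 9.56 and 9.35 in vehicle lungs, and 9.44, 9.49, 9.36 and 9.33 in PE1.3, with overlap throughout.

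Slc1a5, which exchanges glutamine and other neutral amino acids, measured 10.58, 10.79, 11.22 and 10.40 in 18-h PE2.0 lungs, against 9.62, 9.59 and 9.52 in vehicle lungs (1.17 ± 0.20, 2.25-fold, adjusted p = 0.0246). The call was lost without any 1 vehicle array and without PE2.0 rat 2 (adjusted p = 0.0647 to 0.0747), 0.0647 being the value without the low 5′ array. The PE1.3 lungs had 10.82, 11.08, 10.04 and 10.85, all above vehicle, and a difference of 1.12 ± 0.25 that did not pass (adjusted p = 0.0921). At 2 h it was 9.51 to 10.15 in PE2.0, against 9.12 to 9.78 in vehicle lungs, and 9.22 to 9.95 in PE1.3. Slc1a1 (EAAT3), a glutamate and cysteine carrier, averaged 10.07 ± 0.19 in 18-h PE2.0 lungs and 9.41 ± 0.36 in vehicle lungs (adjusted p = 0.0975) and passed for dose over both times (adjusted p = 0.0199); its second probe set differed by 0.98 at 18 h (adjusted p = 0.0258). Slc1a2 (EAAT2) was at the floor in all 4 rats of 2-h PE2.0 and of 2-h PE1.3, and averaged 6.07 ± 0.20 in 18-h PE2.0 lungs and 4.92 ± 0.85 in 18-h vehicle lungs (adjusted p = 0.137). Of the 6 Slc1 members, 2 were higher and none lower in 18-h PE2.0.

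Among the sodium-coupled Slc38 carriers, Slc38a5 (SNAT5, SN2), which moves glutamine, asparagine and serine, was lower at both doses at 18 h. It measured 8.35, 7.91, 7.98 and 8.05 in PE2.0 lungs, against 9.98, 10.06 and 10.39 in vehicle lungs, a difference of −2.07 ± 0.15 (4.2-fold lower, adjusted p = 0.005). In PE1.3 lungs it was 8.64, 8.95, 8.86 and 8.34, a difference from vehicle of −1.45 ± 0.18 (2.73-fold lower, adjusted p = 0.0393). All 8 PE rats lay more than 1 log2 unit below the lowest vehicle rat. The PE1.3 call was lost without any 1 vehicle array and without PE1.3 rat 1, 2 or 4 (adjusted p = 0.0644 to 0.11), and without the low 5′ arrays it had an adjusted p of 0.0985. At 2 h Slc38a5 was 9.92, 10.39, 10.86 and 11.12 in PE2.0, against 10.49, 10.62 and 9.82 in vehicle lungs, and 10.56, 10.48, 10.57 and 10.58 in PE1.3, with no difference past the test. Slc38a2 (SNAT2), a carrier of alanine and other small neutral amino acids that cells induce when starved of them, averaged 11.70 ± 0.30 in 18-h PE2.0 lungs and 11.0 ± 0.05 in vehicle lungs (1.63-fold, adjusted p = 0.0584) and passed for dose (adjusted p = 0.0198). Slc38a5 was the 1 of 9 Slc38 members called at 18 h, a share close to the 9.9% of all genes called in PE2.0, and their median difference in PE2.0 was 0.28.

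Slc43a2 (LAT4), a facilitative carrier of branched-chain amino acids and phenylalanine, was 10.17, 10.14, 10.30 and 10.29 in 18-h PE2.0 lungs, against 9.65, 9.98 and 9.45 in vehicle lungs, a difference of 0.54 ± 0.13 that did not pass (adjusted p = 0.0648). It passed for dose (adjusted p = 0.0163) and for time (adjusted p = 4.03e-05). At 2 h it was 9.32 to 9.59 in PE2.0, against 9.10 to 9.41 in vehicle lungs, and 9.31 to 9.64 in PE1.3. A second probe set of the gene differed by 0.86 between 2-h PE1.3 and vehicle (adjusted p = 0.0433), which makes Slc43a2 the 1 member with any probe set past the test at 2 h. Between 18-h PE2.0 and vehicle that probe set differed by 0.17 (adjusted p = 0.406). Slc43a1 and the 3 proton-coupled Slc36 members, the last all dim, did not pass against vehicle.

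The 16 Slc6 members, sodium- and chloride-coupled carriers of neurotransmitters, creatine, taurine and amino acids, held 3 that were lower in 18-h PE2.0 and none that was higher. Slc6a4 (SERT), the serotonin transporter, measured 9.15, 9.18, 8.67 and 8.29 in PE2.0 lungs, against 11.54, 10.49 and 11.06 in vehicle lungs, a difference of −2.21 ± 0.33 (4.62-fold lower, adjusted p = 0.0194). The groups were more than 1 log2 unit apart, and the call was lost without vehicle rat 3 or PE2.0 rat 3 (adjusted p = 0.0612 and 0.0571). The PE1.3 lungs had 10.08, 10.21, 9.68 and 9.25, each below the lowest vehicle rat, and the difference of −1.23 ± 0.34 did not pass (adjusted p = 0.133). At 2 h Slc6a4 was 10.76, 10.71, 11.20 and 11.38 in PE2.0, against 11.04, 11.07 and 10.48 in vehicle lungs, and 10.75, 11.16, 11.09 and 10.91 in PE1.3, and the groups overlapped.

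Slc6a8, the creatine transporter, was 9.96, 9.88, 9.86 and 9.96 in 18-h PE2.0 lungs, against 10.92, 10.92 and 10.54 in vehicle lungs (−0.88 ± 0.11, 1.83-fold lower, adjusted p = 0.0124). The PE1.3 lungs measured 10.10, 9.96, 10.29 and 10.06, also below every vehicle rat (−0.69 ± 0.13, adjusted p = 0.0688). The groups did not overlap at either dose, whereas a second probe set of the gene differed by −0.35 in PE2.0 and did not pass (adjusted p = 0.11). At 2 h Slc6a8 ranged 10.26 to 10.52 in PE2.0, against 10.44 to 10.57 in vehicle lungs. Slc6a17, known as a neutral amino acid transporter of synaptic vesicles, was 5.22, 6.23, 5.85 and 5.90 in 18-h PE2.0 lungs, against 7.23, 7.30 and 7.21 in vehicle lungs (−1.45 ± 0.24, adjusted p = 0.0229). This rests on 1 of 5 probe sets: the other 4 differed by −0.14 to 1.14 with none past the test, the mean of all 5 differed by −0.03 (adjusted p = 0.969), and the call was also lost without any 1 vehicle array and without PE2.0 rat 3 or 4 (adjusted p = 0.051 to 0.0682, with 0.064 for the low 5′ array). In PE1.3 lungs Slc6a17 ranged 6.26 to 6.89 (adjusted p = 0.084), and at 2 h 6.54 to 7.36 in PE2.0, against 6.81 to 7.22 in vehicle lungs.

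Slc6a20a (SIT1), a proline carrier, passed for dose over both times (adjusted p = 0.0207) without a call against vehicle. It averaged 8.14 ± 0.15 in 2-h PE1.3 lungs and 8.87 ± 0.13 in vehicle lungs (−0.74 ± 0.10, adjusted p = 0.0718), the smallest adjusted p of any member against vehicle at 2 h, and 8.62 ± 0.35 in 18-h PE2.0 lungs and 8.28 ± 0.22 in vehicle lungs. A second probe set of Slc6a20a differed by −0.72 between 2-h PE1.3 and vehicle (adjusted p = 0.309) and did not pass for dose (adjusted p = 0.453). Slc6a6, the taurine transporter, averaged 12.31 ± 0.26 in 18-h PE2.0 lungs and 11.86 ± 0.28 in vehicle lungs (adjusted p = 0.226). The median difference of the 16 Slc6 members in 18-h PE2.0 was −0.02.

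**Figure D4:**
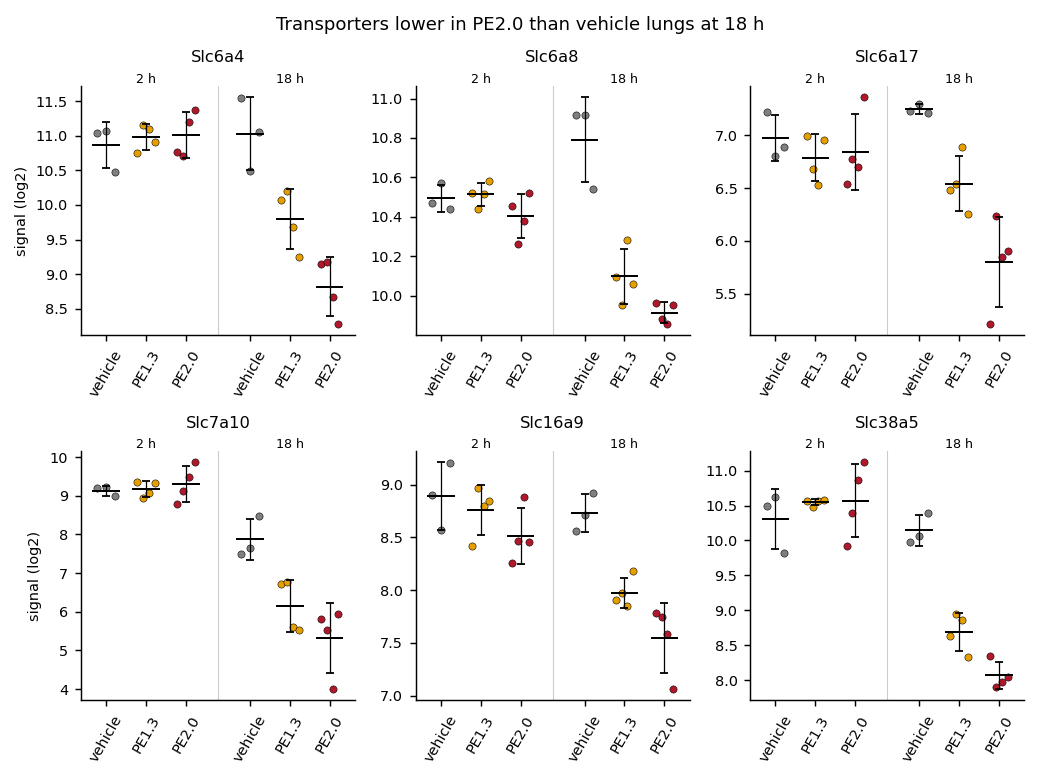
Log2 signal of each rat for the 6 members that were lower in 18-h PE2.0 than in vehicle lungs, by group (vehicle, PE1.3 and PE2.0 at 2 h and 18 h), with the mean as a line and the SD as a bar. Slc38a5 lies between 7.91 and 8.35 in 18-h PE2.0 and between 9.98 and 10.39 in 18-h vehicle lungs; Slc7a10 is at the floor of 4 in 1 PE2.0 rat.

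The monocarboxylate carriers of the Slc16 family moved in both directions at 18 h, with 2 of 9 higher, 1 lower and a median difference of 0.08 in PE2.0. Slc16a1 (MCT1), a carrier of lactate, pyruvate and ketone bodies, measured 10.38, 10.69, 10.54 and 10.50 in PE2.0 lungs, against 9.39, 9.11 and 8.81 in vehicle lungs (1.43 ± 0.15, 2.69-fold, adjusted p = 0.00967). The PE1.3 lungs had 9.97, 9.81, 9.90 and 10.29, all above vehicle, and did not pass (0.89 ± 0.18, adjusted p = 0.0741). At 2 h Slc16a1 was 9.12, 9.30, 9.08 and 9.30 in PE2.0, against 8.85, 9.25 and 9.09 in vehicle lungs, and 9.23, 9.0, 8.99 and 8.89 in PE1.3, so the groups overlapped.

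Slc16a3 (MCT4), the lactate exporter of glycolytic cells, measured 11.43, 11.17, 11.09 and 12.69 in 18-h PE2.0 lungs, against 10.22, 9.75 and 9.66 in vehicle lungs. All 4 PE2.0 rats were higher and rat 4 was far above the rest. The difference of 1.72 ± 0.43 (3.29-fold) did not pass (adjusted p = 0.0649), whereas without PE2.0 rat 4 it was 1.35 ± 0.19 with an adjusted p of 0.0313 (0.0976 to 0.164 without any other array). PE1.3 lungs measured 10.70, 11.01, 10.71 and 11.18 at 18 h (1.03 ± 0.19, adjusted p = 0.0688). At 2 h Slc16a3 was 10.68, 10.42, 10.51 and 10.20 in PE1.3, against 9.38, 9.32 and 8.30 in vehicle lungs (1.46 ± 0.30, adjusted p = 0.148), and 9.84, 10.04, 9.72 and 9.71 in PE2.0 (0.83 ± 0.29, adjusted p = 0.564). Every PE1.3 lung lay above every PE2.0 lung at 2 h, but the difference of PE2.0 from PE1.3, −0.625 ± 0.12, did not pass (adjusted p = 0.0956). The lowest value of all, in vehicle rat 3, came from 1 of the arrays of low 5′ signal. Without those arrays the 2-h difference from vehicle was 1.1 ± 0.14 in PE1.3 and 0.48 ± 0.13 in PE2.0 (adjusted p = 0.0864 and 0.315). Over both times Slc16a3 passed for dose (adjusted p = 0.00186) and for time (adjusted p = 0.000512).

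Slc16a6 (MCT7), known in zebrafish liver as an exporter of ketone bodies, was 8.58, 8.99, 8.51 and 8.69 in 18-h PE2.0 lungs, against 6.56, 6.93 and 6.88 in vehicle lungs (1.90 ± 0.15, 3.74-fold, adjusted p = 0.00581), and its second probe set differed by 1.34 (adjusted p = 0.0218). PE1.3 lungs had 7.26, 7.34, 7.11 and 8.14, all above vehicle (0.67 ± 0.27, adjusted p = 0.262). At 2 h it was 8.98, 7.52, 6.99 and 6.53 in PE2.0, against 6.84, 6.31 and 7.32 in vehicle lungs, and PE2.0 rat 1, an array of low 5′ signal, lay above the others. Without such arrays the 2-h PE2.0 difference was 0.44 ± 0.38 (adjusted p = 0.719). Slc16a9 (MCT9), a carnitine carrier, went down, with 7.78, 7.74, 7.59 and 7.06 in 18-h PE2.0 lungs, against 8.56, 8.71 and 8.92 in vehicle lungs (−1.19 ± 0.20, 2.27-fold lower, adjusted p = 0.0253). This call was lost without any 1 vehicle array, without PE2.0 rat 2 or 3 (adjusted p = 0.056 to 0.076, with 0.056 for the low 5′ array) and in the methods' t-test (0.0508). In PE1.3 lungs Slc16a9 was 7.90, 7.98, 7.85 and 8.18, each below every vehicle rat (−0.75 ± 0.12, adjusted p = 0.0539).

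By the 1 probe set that stands for each gene, no member passed against vehicle or between doses at 2 h in limma or in the methods' t-test. Between 2-h PE1.3 and vehicle lungs 10 members had an unadjusted p under 0.05, and 0.332% of all probe sets were called. Between 2-h PE2.0 and vehicle lungs 5 members did, with 0.0226% of probe sets called, and between 2-h PE2.0 and PE1.3 lungs 8 did, with 0.438% called. The share of members with an unadjusted p under 0.05 was 16.1%, 8.1% and 12.9% in these comparisons, beside 13.2%, 7.7% and 12.3% of all probe sets.

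Whether a PE effect differed between times was tested in the model of all 22 arrays as the difference of differences, 18 h minus 2 h. For PE2.0, 10 members (16.1%) passed, beside 5.73% of probe sets and 8.22% of genes. They were Slc1a3, Slc6a20b, Slc7a1, Slc7a7 and Slc16a1 with a higher effect at 18 h, and Slc6a4, Slc6a8, Slc6a17, Slc7a10 and Slc38a5 with a lower effect. The values ran from −2.73 ± 0.60 for Slc7a10 to 1.73 ± 0.24 for Slc1a3. For PE1.3, 4 members (6.45%) passed, beside 0.744% of probe sets and 1.13% of genes. The values were 1.09 ± 0.24 for Slc1a3, 0.92 ± 0.20 for Slc16a1, −0.71 ± 0.13 for Slc6a8 and −1.69 ± 0.34 for Slc38a5. Slc7a5 did not pass this test at either dose (adjusted p = 0.0625 for PE2.0 and 0.256 for PE1.3).

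In the 2-way model, dose was passed by 20 members (32.3%), beside 9.93% of all probe sets and 13.7% of all genes. Time was passed by 20 members (32.3%), beside 17.6% of probe sets and 22.6% of genes. The interaction of dose and time was passed by 8 members (12.9%), beside 3.62% of probe sets and 5.35% of genes. The smallest adjusted p for dose were those of Slc7a5 (8.98e-05) and Slc7a1 (9.00e-05), followed by Slc16a1 (0.000282) and Slc6a8 (0.000479). The 8 members of the interaction were Slc1a3, Slc6a4, Slc6a8, Slc6a17, Slc7a7, Slc7a10, Slc16a1 and Slc38a5. Between 18 h and 2 h, 15 members (24.2%) passed in PE2.0 lungs, 11 higher and 4 lower at 18 h, beside 6.3% of probe sets and 8.63% of genes. In PE1.3 lungs 9 members (14.5%) passed, 4 higher and 5 lower, beside 5.45% of probe sets and 7.1% of genes. In vehicle lungs none passed (limma, 0.0161% of probe sets called), 10 had an unadjusted p under 0.05, and the methods' t-test called 0. The largest of these time differences was that of Slc7a10, which averaged 5.32 ± 0.90 in 18-h PE2.0 lungs and 9.31 ± 0.47 in 2-h PE2.0 lungs, while vehicle lungs averaged 7.87 ± 0.53 at 18 h and 9.13 ± 0.13 at 2 h. Slc1a2 was the 1 member called in PE2.0 over time from a group wholly at the floor (adjusted p = 0.00118), and Slc16a13 and Slc38a4, which had no call against vehicle or for dose, were higher at 18 h than at 2 h in PE2.0 by 1.20 ± 0.19 and 1.16 ± 0.24. Vehicle lungs averaged 7.855 at 18 h and 7.011 at 2 h for Slc16a13, also a rise, and 5.699 and 5.488 for Slc38a4. Without the low 5′ arrays Slc38a4 did not pass (adjusted p = 0.0553).

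Genes that make or use the carried molecules were read at 18 h in PE2.0, where the median of all probe sets was 0.00 and 9.9% of all genes were called, a share close to 1 called of 10 or 2 of 18. Of 16 genes of arginine and polyamine metabolism, 5 were higher and 1 lower, with a list median of 0.51. Odc1, the first enzyme of polyamine synthesis, was 3.63-fold higher (1.86 ± 0.19, adjusted p = 0.00848), Srm (spermidine synthase) 3.04-fold (adjusted p = 0.00601) and Arg1 (arginase) 3.56-fold (adjusted p = 0.00918). Nos3, a nitric oxide synthase, was 2.23-fold higher (adjusted p = 0.0293) and Amd1 1.99-fold (adjusted p = 0.0277). Ddah2, which breaks down an inhibitor of nitric oxide synthase, was 2.31-fold lower (adjusted p = 0.0262). Of 22 genes of the amino acid response, 4 were higher and 1 lower with a median of 0.33. Shmt2 of serine and glycine metabolism was 2.44-fold higher (adjusted p = 0.00843), Nupr1 2.67-fold (adjusted p = 0.0344) and Psat1 1.69-fold (adjusted p = 0.0439), and Vldlr, a lipoprotein receptor listed for its control by ATF4, was 2.4-fold lower (adjusted p = 0.0074). At 2 h Atf3, a stress-induced transcription factor of this list, was the 1 gene of these pathway lists called against vehicle, 6.54-fold higher in PE2.0 (adjusted p = 0.023) and 3.48-fold in PE1.3 (adjusted p = 0.0268), each against the same 2-h vehicle rats.

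Of 12 genes listed for glutathione and antioxidant defense, 3 were higher and 1 lower in 18-h PE2.0 (median 0.59). Those higher were Hmox1 (heme oxygenase 1) at 4.15-fold (adjusted p = 0.00786), Txnrd1 (thioredoxin reductase) and Srxn1 (sulfiredoxin). Nqo1, a quinone reductase, was 1.53-fold lower (adjusted p = 0.0104). The listed genes of glutathione synthesis, Gclc, Gclm and Gss, were not called. Of 15 lactate genes 1 was higher and 2 lower (median 0.25): the lactate dehydrogenase subunits moved in opposite directions, Ldha 1.9-fold higher (adjusted p = 0.0142) and Ldhb 1.91-fold lower (adjusted p = 0.0153). Of 12 glutamine and glutamate genes Aldh18a1, of proline synthesis, was 1.88-fold higher (adjusted p = 0.025) and Gpt, alanine aminotransferase, 5.89-fold lower (adjusted p = 0.00764). Of 10 branched-chain genes Bcat1, the cytosolic transaminase of leucine, was 5.53-fold higher (adjusted p = 0.026). Of 12 creatine, taurine, GABA and monoamine genes 3 were lower (median −0.45), Ckb (creatine kinase B), Maob (monoamine oxidase B) and Ddc. Of 18 genes that sense amino acids for mTORC1, Castor1 and Nprl2 were lower (median −0.26), and of 18 other amino acid carriers Slc25a22 was higher and Slc25a29 lower (median 0.00).

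Mean levels of the markers of some cell types did not overlap between 18-h PE2.0 and vehicle lungs. Those of alveolar type 2, club, ciliated, fibroblast, smooth muscle, NK, mast, platelet and mesothelial cells overlapped. Club markers, for example, averaged 11.1 to 12.81 in PE2.0 and 11.91 to 13.09 in vehicle lungs. How often such small groups separate over all genes was not counted. In whole lung tissue, fewer cells of a type and less RNA per cell cannot be told apart. The mean log2 signal of 10 of the 12 endothelial markers that were measured was 11.28 to 11.52 in 18-h PE2.0 lungs, against 11.71 to 11.84 in vehicle lungs, with Tie1, Vwf and Emcn called lower, beside the lower Slc6a4. Alveolar type 1 markers (7 of 8 measured) averaged 11.08 to 11.66 in PE2.0 and 11.94 to 12.18 in vehicle lungs, with Cav1 called lower. Macrophage markers (6 of 10) averaged 10.59 to 10.87 in PE2.0 and 9.80 to 10.07 in vehicle lungs, with Cd163 and Chi3l1 called higher, beside the higher Slc7a7. Neutrophil markers (8 of 11) averaged 10.10 to 11.59 in PE2.0 and 9.24 to 9.62 in vehicle lungs, with Lcn2 called higher. In this comparison 9.9% of all genes were called, and 12.1% of genes with a mean of 6 or more. A single call among 7 alveolar type 1 or 8 neutrophil markers is close to these shares. T cell markers (8 of 8) averaged 8.30 to 9.18 in PE2.0 and 9.45 to 9.97 in vehicle lungs, and B cell markers (3 of 6) 8.00 to 8.70 in PE2.0 and 9.25 to 9.56 in vehicle lungs. Erythroid markers (4 of 7) averaged 8.41 to 10.52 in PE2.0 and 10.57 to 10.93 in vehicle lungs, and cardiac muscle markers (5 of 6) 9.01 to 9.61 in PE2.0 and 9.66 to 10.76 in vehicle lungs, with none called, beside the lower Slc38a5 and Slc6a8. Liver genes (6 of 6), dim, averaged 5.08 to 5.30 in PE2.0 and 4.68 to 5.07 in vehicle lungs, with none called. No measured marker of these lists averaged at the floor. The part of these markers in the transporter differences was not tested.

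Leaving out 1 array at a time, 8 of the 14 members called in 18-h PE2.0 kept the call each time: Slc1a3, Slc6a8, Slc7a1, Slc7a5, Slc7a12, Slc16a1, Slc16a6 and Slc38a5. The count itself ranged from 8, without vehicle rat 3, to 14. For PE1.3 at 18 h none of the 3 calls was kept throughout, and the count ranged from 0, without PE1.3 rat 2, to 7, without PE1.3 rat 3. No probe set is tied to 1 transcript form here, and the number of arrays, 3 or 4 a group, limits the precision.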

How the data were processed

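Right lung RNA of 22 rats was hybridised to Affymetrix Rat Genome 230 2.0 arrays. The values deposited by the authors are linear intensity values of 31099 probe sets, scaled to a trimmed mean of 500.1 to 500.2 an array. The study's methods describe GC-RMA log2 values, another summary of the same arrays, and the summarising program is not given in the sources used here. The 57 control probe sets were left out, intensities under 16 (13.6% to 17.3% of an array) were set to 16, and log2 values were quantile normalized (R 4.3.3, limma 3.58.1). Genes were named from the platform annotation (20826 probe sets with 1 symbol, 436 with several, 9780 with none), and a gene is given by its probe set of highest mean. Each comparison was fitted with lmFit and eBayes on the groups compared, and the 2-way model and differences of effects on all arrays. A probe set was called at a Benjamini-Hochberg adjusted p under 0.05 over 31042 probe sets and at least 1.5-fold (for the 2-way model, over the range of group means). The scripts were tested on simulated data.

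Every rat's value is given for members called against vehicle, for dose or for the interaction, up to 15 by adjusted p. The same holds for Slc3a2 with 5 light chains and Slc16a1 with Slc16a3. Group means are given for the other members called in those tests. Members called only between times or for time were counted, and not all of them are named. Members and lists were chosen with earlier results of these data known. Alternatives were no quantile normalization, a floor of 64, probe sets with a mean under 6 left out, a variance trend, a replicate block, 1 fit to every array, averaging the probe sets of a gene, the methods' t-test (unmoderated, two-sided), and arrays left out. No column of another series was present.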

Additional observations from a re-analysis of the deposited data

Results flagged for a closer look

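Among the members whose values are given for every rat, 7 of 76 groups of 4 rats held 1 rat far from the other 3 (its gap to the nearest, over the range of the group, above Dixon's 95% critical value, which chance gives in about 1 of 20 groups). At 18 h, Slc7a1 was 9.82 in PE1.3 rat 3, with 10.61 to 10.76 in the others, and 10.7 in PE2.0 rat 1, with 11.17 to 11.19 in the others. Slc7a6 was 7.99 in the same PE1.3 rat 3, with 8.69 to 8.75 in the others. In 2-h PE1.3 lungs, Slc7a7 was 10.18 in rat 1 (others 9.85 to 9.89), Slc7a8 8.14 in rat 4 (8.45 to 8.51), Slc7a12 4.57 in rat 3 (5.39 to 5.49) and Slc38a5 10.48 in rat 2 (10.56 to 10.58).

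The effect of PE2.0 against vehicle at 18 h minus that at 2 h, tested in limma on all arrays, differed for 10 members. On the log2 scale it was 1.73 for Slc1a3, 1.63 for Slc6a20b, 1.29 for Slc16a1, 1.11 for Slc7a1 and 1.06 for Slc7a7, and it was −2.73 for Slc7a10, −2.35 for Slc6a4, −2.33 for Slc38a5, −1.32 for Slc6a17 and −0.79 for Slc6a8. For PE1.3 it differed for 4 members, 1.09 for Slc1a3, 0.92 for Slc16a1, −0.71 for Slc6a8 and −1.69 for Slc38a5. Slc6a20b, dim at a mean of 5.13, was not called against vehicle at either time, and both time comparisons use the vehicle rats of their own time.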

How the results depend on the processing

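Members called between 18-h PE1.3 and vehicle, 3 in the report, numbered 1 with a floor of 64, 9 with dim probe sets left out, 13 in 1 fit on all 22 arrays, 1 in the methods' t-test and 0 once the 4 low-5′ arrays had been dropped. Between 18-h PE2.0 and vehicle, 14 in the report, they numbered 23 in 1 fit on all 22 arrays. Between 18-h PE2.0 and PE1.3, 0 in the report, they numbered 2 in that fit and 1 with those 4 arrays left out. With dim probe sets left out, 2 members were called between 2-h PE1.3 and vehicle, and in 1 fit on all arrays 1 was called between 18-h and 2-h vehicle. The difference of the PE1.3 effect between times, 4 in the report, had 1 member with the mean of all probe sets and 1 with those arrays left out. The cause was not tested. The share of all probe sets called under each of these settings is not given here. A change in these counts therefore cannot be told from a change in calls over the whole array. The same holds for every count given with single arrays left out.

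With each array left out in turn, the count was 0 to 7 for 18-h PE1.3 against vehicle (0 without PE1.3 rat 2, 7 without PE1.3 rat 3, otherwise 1), 8 (without vehicle rat 3) to 14 for 18-h PE2.0 against vehicle, 0 to 1 for 18-h PE2.0 against PE1.3 (1 without PE1.3 rat 4) and 0 to 5 for the PE1.3 effect between times, which moved in 11 of 22 cases (0 without 2-h vehicle rat 3 or 2-h PE1.3 rat 4). Of 271 values of single members under the alternatives, 199 kept their direction and call, 72 lost the call and 0 changed direction.

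Replicate numbers did not pair the rats (correlation of residuals of same-numbered rats −0.273 to 0.123, median −0.01, over 51 pairs). With the number as a replicate block, 0 members were called in 18-h PE1.3 or PE2.0 against vehicle or in either PE group between times, 1 for the difference of the PE1.3 effect, and adjusted p of the members called rose to 0.114 or more.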

Other observations

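Of the carriers of arginine and glutamine outside the calls, Slc7a2 (CAT-2), the inducible arginine carrier, averaged 5.14 ± 0.83 in 18-h PE2.0 lungs and 4.34 ± 0.58 in vehicle lungs (difference 0.81 ± 0.52, adjusted p = 0.416). Slc38a1 (SNAT1), a glutamine carrier, averaged 8.12 ± 0.13 in 18-h PE2.0 lungs and 8.14 ± 0.10 in vehicle lungs (−0.02 ± 0.09), and Slc1a4 (ASCT1), a carrier of alanine, serine and cysteine, averaged 9.04 ± 0.17 in 18-h PE2.0 lungs and 9.10 ± 0.11 in vehicle lungs (−0.06 ± 0.11). Both promoter windows held TGATGNAA, as did that of Slc7a1, and neither gene passed the test at 18 h (adjusted p = 0.949 and 0.808). Slc7a6os, which is no transporter, differed by 0.15 ± 0.07 (adjusted p = 0.238).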
